A study of Mus musculus with 2 samples.

Results

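The Ly6c2 monocytes of 2 MC38 tumour libraries were cells that held transcripts of Ly6c2, a surface protein of classical mouse monocytes, and of the lysozyme gene Lyz2, with few or none of the macrophage complement genes C1qa, C1qb and C1qc. Members were chosen by measured UMIs of these genes: at least 3 Ly6c2 UMIs (unique molecules counted), at least 5 Lyz2 UMIs, under 20 UMIs of the 3 C1q genes together, 0 UMIs of Cd3d, Cd3e and Cd3g, and under 20 UMIs of the neutrophil genes S100a8 and S100a9 together. Only barcodes with at least 200 genes and at most 20% mitochondrial UMIs were considered. The rule found 181 members among 14154 kept barcodes, 135 of 7164 in the RSPO3-OE library and 46 of 6990 in the Ctrl library. They were compared with 1316 and 1236 macrophages, taken as kept barcodes with at least 20 C1q UMIs.

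Both libraries came from tumours of MC38, a mouse colon carcinoma line, in C57BL/6 mice, read by droplet-based 3′ single-cell RNA sequencing of dissociated tumour tissue. In the RSPO3-OE group the implanted MC38 cells overexpressed RSPO3, a secreted protein that strengthens Wnt signalling, and in the Ctrl group they were control MC38 cells. RSPO3 was thus altered in the tumour cells only, and the monocytes are cells of a host of the same strain in both groups. The labels call the tissue a xenograft, and the number, age and sex of the mice, the tumour site, the harvest time and the construct are not stated in the labels. Each group had 1 library, so there is no replicate check, no test and no p-value, and every interval covers counting error only, at 95%.

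Classical monocytes leave the bone marrow through the chemokine receptor CCR2, circulate with high Ly6C, and enter inflamed tissue and tumours. There they lose Ly6C and can become macrophages or cells that present antigen, while blood monocytes that stay in the vessels become Ly6C-low patrolling cells under the nuclear receptor NR4A1. Interferon gamma from T and NK cells induces MHC class II in them through the coactivator CIITA, which acts on the X and Y boxes of class II promoters.

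Those promoters are shown here because the MHC class II list had the highest median ratio between the libraries over all members. In RefSeq on GRCm38.p6, each window runs from 250 bases before to 50 bases after the annotated start on chromosome 17: H2-Eb1 at chr17:34305617-34305916 on the plus strand, H2-DMb1 at chr17:34152941-34153240 on the plus strand, H2-DMb2 at chr17:34144999-34145298 on the plus strand, and H2-Aa at chr17:34287774-34288073 on the minus strand. Capitals mark the searched letters of the X box (AAC, any base, then GATGATG) and, after it, of the Y box (TGATTGG), both searched on each strand.
H2-Eb1: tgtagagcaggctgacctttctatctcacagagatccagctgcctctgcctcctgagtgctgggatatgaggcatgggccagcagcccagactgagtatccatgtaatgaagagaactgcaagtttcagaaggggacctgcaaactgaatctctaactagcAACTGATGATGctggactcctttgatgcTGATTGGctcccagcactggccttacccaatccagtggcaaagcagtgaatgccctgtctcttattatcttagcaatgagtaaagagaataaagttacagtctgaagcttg
H2-DMb1: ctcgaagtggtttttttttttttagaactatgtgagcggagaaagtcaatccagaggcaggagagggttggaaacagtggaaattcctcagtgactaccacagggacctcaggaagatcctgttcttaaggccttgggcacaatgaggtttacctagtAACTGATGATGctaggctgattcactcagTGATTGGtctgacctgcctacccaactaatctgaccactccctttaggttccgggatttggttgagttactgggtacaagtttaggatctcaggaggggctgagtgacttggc
H2-DMb2: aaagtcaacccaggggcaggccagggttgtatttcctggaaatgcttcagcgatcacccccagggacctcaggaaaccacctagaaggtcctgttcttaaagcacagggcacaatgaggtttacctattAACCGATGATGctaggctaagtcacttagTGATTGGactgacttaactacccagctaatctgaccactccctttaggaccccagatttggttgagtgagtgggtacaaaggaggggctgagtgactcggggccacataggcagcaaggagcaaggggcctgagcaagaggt
H2-Aa: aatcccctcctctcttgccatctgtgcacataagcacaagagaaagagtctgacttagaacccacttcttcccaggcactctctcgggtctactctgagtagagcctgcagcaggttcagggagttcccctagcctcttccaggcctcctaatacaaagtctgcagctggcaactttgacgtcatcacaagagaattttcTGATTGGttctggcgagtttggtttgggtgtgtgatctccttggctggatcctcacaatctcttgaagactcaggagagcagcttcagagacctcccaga
The X box letters began 89, 92 and 121 bases before the start of H2-Eb1, H2-DMb1 and H2-DMb2. The Y box letters began 61, 63, 92 and 50 bases before the start of H2-Eb1, H2-DMb1, H2-DMb2 and H2-Aa. The Y box letters stood in 7.82% of 32851 mouse promoter windows, the X box letters in 0.0609%, and both in 7 windows. A match of letters is a description of the sequence and not a measured binding site. Of the 10 MHC class II list genes, 7 had a promoter window, and not all of these are shown. Windows with both boxes belonged only to H2-Eb1, H2-DMb1, H2-DMb2, Nubp2 and Spsb3. Nubp2 and Spsb3 are not on the list, and no list gene left unshown held both boxes in its window.

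Depth and mixed barcodes come before the results. Members held a median of 6268 UMIs (2151 to 32488) and 2089 genes in RSPO3-OE, and of 7810.5 UMIs (3677 to 55057) and 2189 genes in Ctrl. Macrophages were deeper, at medians of 12284.5 and 12936 UMIs. The summed UMIs behind each level were 973888 in RSPO3-OE and 419846 in Ctrl, and levels are given as CPM, a gene's UMIs per 1000000 summed UMIs of that class and library. The libraries shared 7 deposited barcodes, of which 0 were members.

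In each library 3 members also carried tumour cell transcripts. They held 24 to 134 UMIs of 6 tumour genes (Krt8, Hmga2, Col3a1, Col1a1, Lum and Rspo3) in RSPO3-OE and 18 each in Ctrl, while the other members held at most 3 and 1. These 6 barcodes had 19376 to 55057 UMIs and are the 6 members that the doublet caller Scrublet marked. They made up 8.84% of the member UMIs in RSPO3-OE and 25.4% in Ctrl, and 1 of them gave 13.1% of all Ctrl member UMIs. Values are therefore for all members unless stated, and many are given again without these 6 mixed barcodes. A member value given once includes them unless the text says otherwise. The members with at least 10 tumour gene UMIs were singled out after the data had been seen. Summed over the 6 genes, RSPO3-OE and Ctrl members held 288 and 136 CPM, and 39.4 and 9.58 CPM without the mixed barcodes. The macrophages held 597 and 167 CPM.

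The genes that chose the cells describe the gate. Ly6c2 (chr15:75108158-75111970, minus strand, mm10) stood at 3495 and 2439 CPM in RSPO3-OE and Ctrl members, and at 129 and 46.4 CPM in macrophages. Lyz2 (chr10:117277331-117282321, minus strand) stood at 6372 and 9694 CPM in members, and at 3815 and 7434 CPM in macrophages. Kept barcodes with at least 3 Ly6c2 UMIs numbered 499 and 151, and the Lyz2 limit left 265 and 94. Of these, 137 and 49 held under 20 C1q UMIs, and the Cd3 limit left 135 and 47. The limit on S100a8 and S100a9 removed 1 Ctrl barcode. Ly6c2 alone would not have chosen monocytes, since with every cell thinned to 2000 UMIs it was found in 42.1% of 423 RSPO3-OE T cells and 24.2% of 211 Ctrl T cells. Just outside the Ly6c2 limit stood 12 and 4 barcodes with exactly 2 UMIs, and just inside it 10 and 3 with exactly 3. Around the C1q limit, 7 and 1 members held 15 to 19 UMIs, and 6 and 1 barcodes that met the other limits held 20 to 24.

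**Figure D1:**
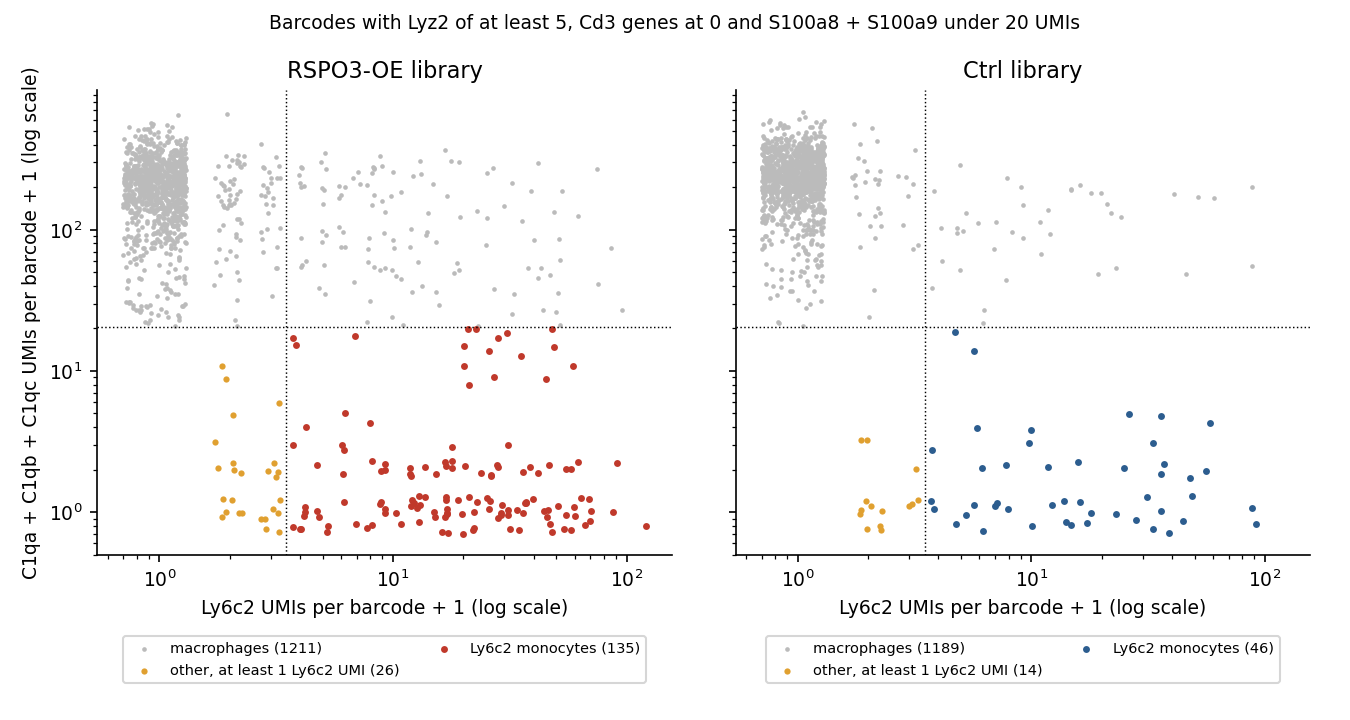
Barcodes with at least 5 Lyz2 UMIs, no Cd3 UMI and under 20 S100a8 and S100a9 UMIs are plotted by Ly6c2 UMIs (x axis, plus 1, log scale) and summed C1q UMIs (y axis, plus 1, log scale), with the RSPO3-OE library on the left and the Ctrl library on the right. Dotted lines are the limits, and the 135 RSPO3-OE members (red) and 46 Ctrl members (blue) lie to the right of and below them, with 118 and 44 of them at 0 to 4 C1q UMIs.

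Members took a greater part of the kept barcodes of RSPO3-OE. Their share was 1.88% there (1.58 to 2.23, exact Clopper-Pearson interval) and 0.658% in Ctrl (0.482 to 0.877). Among monocytes and macrophages together, their share was 9.30% (7.86 to 10.9) of the 1451 RSPO3-OE cells, against 3.59% (2.64 to 4.76) of the 1282 Ctrl cells. Without the mixed barcodes the latter shares were 9.12% (7.68 to 10.7) and 3.36% (2.44 to 4.50). The intervals of the libraries do not overlap in either pair. Ly6c2 per cell, on which the rule acts, was also higher in RSPO3-OE members, with medians of 28.5 and 16.05 UMIs per 10000. With limits set per 10000 UMIs in place of UMIs per barcode the shares of monocytes and macrophages were 9.90% (8.42 to 11.6) and 3.69% (2.73 to 4.86).

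The cells carried the genes that mark classical monocytes. Plac8, a marker of monocytes and of several lymphocytes (chr5:100553725-100572245, minus strand), stood at 4458 CPM in RSPO3-OE members and 3818 CPM in Ctrl members, against 287 and 128 CPM in macrophages. Ccr2, the receptor for the monocyte chemoattractant CCL2 (chr9:124101950-124113557, plus strand), stood at 644 and 660 CPM against 102 and 85.8 CPM. Chil3, a secreted chitinase-like protein of monocytes and neutrophils (chr3:106147554-106167564, minus strand), stood at 584 and 424 CPM against 33.9 and 1.71 CPM. All 3 were thus higher in members than in macrophages in both libraries, which is a description, since both classes were cut from the same cells. With each cell thinned to 2000 UMIs, Plac8 was found in 94.8% of RSPO3-OE members (89.6 to 97.9) and 82.6% of Ctrl members (68.6 to 92.2), and Ccr2 in 64.4% (55.8 to 72.5) and 76.1% (61.2 to 87.4). Chil3 was found in 44.4% (35.9 to 53.2) and 34.8% (21.4 to 50.2), and in 0.236% of 423 T cells of RSPO3-OE and 0 of 211 in Ctrl, which allows up to 1.73%. Unthinned, Plac8 was found in 97.0% and 100% of members, Ccr2 in 91.1% and 91.3%, and Chil3 in 57.0% and 47.8%. Chil3 therefore divided the members, while Plac8 and Ccr2 were found in most. In T cells, of a median of 7047 and 7465 UMIs, the thinned share of Ccr2 was 4.96% and 5.69%, and that of Plac8 35.2% and 46.9%, so Plac8 is not particular to monocytes here.

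Of the 15 classical monocyte list genes with enough UMIs (at least 10 in members and macrophages together in each library), 12 were at least 2-fold higher in members than in macrophages in both libraries (11 without the mixed barcodes) and 0 were lower. Over all 11328 genes compared, 3.73% were higher in both libraries (5.16% of 11319 without the mixed barcodes) and 4.56% were lower (6.07%). The list's median log2 ratio was 2.17 in RSPO3-OE and 2.94 in Ctrl, against medians of all genes of -0.18 and 0.06. Hp, the haemoglobin-binding haptoglobin, stood at 196 and 150 CPM in members against 2.30 and 1.16 CPM in macrophages. Ly6i, a Ly6 family neighbour of Ly6c2, stood at 509 and 214 CPM against 25.8 and 6.97 CPM. Ifitm6, an interferon-induced membrane protein, stood at 146 and 157 CPM against 3.53 and 9.01 CPM. S100a6, a calcium-binding protein, had the lowest class ratio of the list in RSPO3-OE, with log2 ratios of 0.12 and 1.63, and -0.22 and 0.74 without the mixed barcodes.

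Other genes named by the ratio between the classes were Gpr141, Napsa, Adgre5, Hopx, Clec4e and Ifi205, with log2 ratios of 2.63 to 4.29 over both libraries. Napsa, an aspartic protease, stood at 321 and 314 CPM against 31.9 and 21.2 CPM. Clec4e, the Mincle receptor for microbial glycolipids and dead cells, stood at 225 and 155 CPM against 33.7 and 22.4 CPM. Adgre5, the adhesion receptor CD97, stood at 130 and 131 CPM against 13.5 and 12.3 CPM. Napsa and Adgre5 were close in the members of both libraries, with log2 ratios of 0.03 and -0.01 between them.

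**Figure D2:**
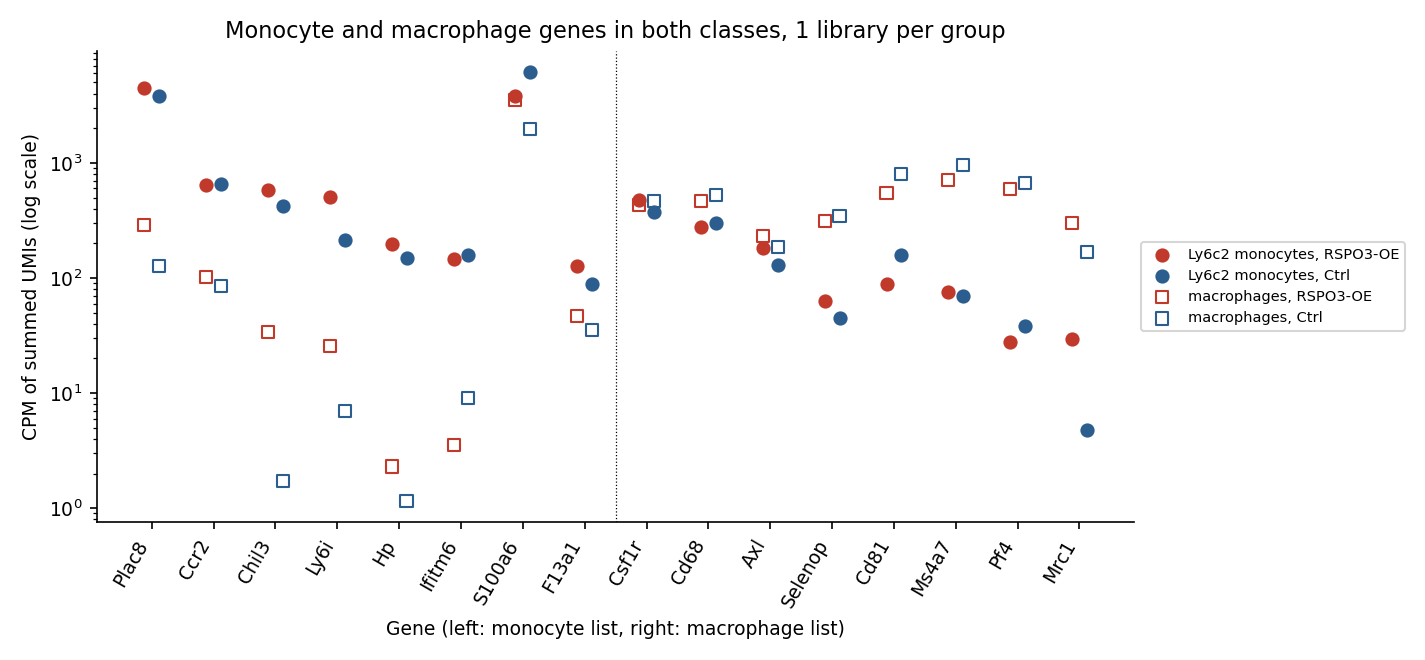
Level of 8 genes of the classical monocyte list and 8 of the macrophage list (x axis) in CPM of summed UMIs (y axis, log scale), with filled circles for Ly6c2 monocytes and open squares for macrophages, red for RSPO3-OE and blue for Ctrl, 1 library each. Plac8 at 4458 and 3818 CPM and Hp at 196 and 150 CPM lie far above the macrophage squares, Csf1r in both libraries and S100a6 in RSPO3-OE are close in both classes, and Mrc1 at 29.8 and 4.76 CPM lies far below.

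Macrophage genes were low. Of 22 macrophage list genes, 16 were at least 2-fold lower in members than in macrophages in both libraries (14 without the mixed barcodes) and 0 were higher. Pf4, a platelet-type chemokine of tissue macrophages, stood at 27.7 and 38.1 CPM against 597 and 669 CPM. Mrc1, the mannose receptor, stood at 29.8 and 4.76 CPM against 302 and 169 CPM. Ms4a7, a membrane protein of macrophages, stood at 76.0 and 69.1 CPM against 716 and 960 CPM. Ccl8 and Ccl12, chemokines that bind CCR2 or related receptors, stood at 11.3 and 2.38 CPM and at 74.96 and 92.9 CPM, against 928 and 137 CPM and 811 and 884 CPM in macrophages. Zmynd15, Olfml3, Acp5, Rab3il1, Abca1, Cd81 and Selenop completed the lowest genes, with log2 ratios of -6.68 to -2.32. Csf1r, the receptor for CSF1 on both lineages, was nearer, with log2 ratios of 0.13 and -0.30. Of the lipid handling and lysosome genes 7 of 19 were lower (3 without the mixed barcodes).

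Most receptors and regulators did not pass 2-fold in both libraries. Over all genes compared, 3.73% were at least 2-fold higher in members in both libraries and 4.56% lower. Of 16 adhesion and migration genes, 4 were higher on that measure (6 without the mixed barcodes) and 0 lower. At least 2-fold higher in members in both libraries were 2 of 19 monocyte transcription factors, 2 of 11 chemoattractant receptors and 1 of 8 growth factor receptors, and 1, 1 and 0 were lower. The chemoattractant receptor median, 0.65 in RSPO3-OE and 0.48 in Ctrl, became -0.050 and -0.045 against macrophages matched on depth. Ltb4r1, the leukotriene B4 receptor, stood at 102 and 88.1 CPM in members against 17.3 and 17.6 CPM in macrophages. Itgb7, an integrin chain of migrating leukocytes, stood at 98.6 and 78.6 CPM against 22.7 and 16.7 CPM, and Emilin2, a matrix glycoprotein, at 289 and 238 CPM against 69.6 and 71.7 CPM. Cebpb, a transcription factor of monocyte survival and inflammatory genes, stood at 2501 and 1922 CPM against 843 and 690 CPM. Maf and Id2 were lower in members, with log2 ratios of -1.69 and -1.56 for Maf, a factor of mature macrophages, and of -1.01 and -0.98 for Id2. Csf2rb, the shared receptor chain of GM-CSF, IL-3 and IL-5, stood at 395 and 200 CPM against 166 and 117 CPM.

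Type I interferon genes were higher in members than in macrophages for 13 of 25 genes in both libraries (18 without the mixed barcodes) and lower for 0. Ifi205 and Ifi209, members of the DNA-sensing HIN-200 group, stood at 283 and 150 CPM and at 429 and 295 CPM in members, against 38.2 and 24.3 CPM and 93.3 and 96.3 CPM in macrophages. Il1b, the cytokine interleukin-1 beta, stood at 4476 and 2244 CPM against 1309 and 592 CPM. Il6, Clec4e and Osm were also among the 6 of 20 inflammatory genes at least 2-fold higher in both libraries, with 0 lower. Il6 rested on few UMIs, at 25.7 and 16.7 CPM in members.

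Markers of most other cell types were sparse. Of the neutrophil list, Retnlg, Ly6g, Camp, Ngp and Ltf were at 0 in both libraries, and Csf3r, the G-CSF receptor, stood at 57.5 and 26.2 CPM. The T and NK cell list summed to 2.05 and 0 CPM, and Cpa3, Mcpt8 and Ms4a2 of mast cells and basophils were at 0. Of the dendritic cell genes, Zbtb46 and Cd209a were at 0 among members without the mixed barcodes and the list summed to 72.9 and 28.6 CPM (74.3 and 9.58 without them). Of the plasmacytoid dendritic cell genes Siglech, Ccr9 and Klk1 were at 0 in both libraries. That list summed to 768 and 796 CPM, of which 757 and 796 CPM were Bst2, a tetherin that interferon induces in many cell types, at 1022 and 1157 CPM in macrophages. Of 10 patrolling monocyte genes, 2 were at least 2-fold higher in members than in macrophages in both libraries and 2 were lower. Over all genes these shares were 3.73% and 4.56%. Without the mixed barcodes 5 were higher and 1 lower, against 5.16% and 6.07% of all genes. The list's median log2 ratios were 0.53 in RSPO3-OE and 0.77 in Ctrl (0.66 and 1.04 without the mixed barcodes). Ace stood at 53.4 and 40.5 CPM against 5.57 and 1.33 CPM in macrophages. Cx3cr1, the fractalkine receptor that patrolling cells carry at high level, stood at 99.6 and 112 CPM against 313 and 459 CPM. S phase genes summed to 359 and 348 CPM in members, to 292 and 160 CPM without the mixed barcodes, and to 748 and 749 CPM in macrophages.

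Ly6c2 and C1q overlapped in some cells. Barcodes that met the Ly6c2, Lyz2, Cd3 and S100 limits with 20 or more C1q UMIs numbered 119 in RSPO3-OE and 41 in Ctrl, nearly as many as the members. In RSPO3-OE, Plac8 stood at 4860 CPM in the 118 barcodes with 0 to 4 C1q UMIs, 2223 CPM in the 14 with 10 to 19, 1901 CPM in the 26 with 20 to 49, and 818 CPM in the 93 with 50 or more. The 3 barcodes with 5 to 9 are left out here. Hp stood at 229, 14.97, 67.4 and 10.2 CPM over the same steps. Ms4a7 stood at 74.3, 59.9, 189 and 400 CPM, and Mrc1 at 29.2, 22.5, 53.9 and 174 CPM. Monocyte genes were thus lower and macrophage genes higher in the barcodes with most C1q, and Ccr2 was still at 344 CPM there. The Ctrl library gave 44, 2, 6 and 35 barcodes, with Plac8 at 3821, 3757, 2365 and 1166 CPM. The barcodes with 50 or more C1q UMIs were also deeper, at medians of 12780 and 9270 UMIs against 6028 and 7601 at 0 to 4. The part of depth in the result was not tested.

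Between the libraries, the core monocyte genes stood at similar levels when summed over all members. Genes of antigen presentation and of the response to interferon gamma stood higher in the RSPO3-OE members. Of 6165 genes with at least 20 UMIs, 18.2% were at least 1.5-fold higher in RSPO3-OE and 12.9% lower, and 19.1% and 9.69% of 5585 without the mixed barcodes. In macrophages 12.9% of 12445 genes were higher and 6.01% lower. List genes below entered with at least 10 UMIs, a lower limit than the 20 UMIs behind these shares. The medians of all genes were near equal, at log2 ratios of 0.03, 0.08 without the mixed barcodes and 0.06 in macrophages.

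Of the 16 classical monocyte genes, 1 was at least 1.5-fold higher in RSPO3-OE members and 2 were lower (1 and 1 without the mixed barcodes), shares below those of all genes. The list's median log2 ratio was -0.07, and -0.20 without the mixed barcodes. Ccr2 had a ratio of -0.04 (-0.24 to 0.17), and -0.26 without the mixed barcodes. Plac8 had 0.22 (0.14 to 0.31) and 0.02, and Chil3 had 0.46 (0.22 to 0.71) and 0.25. The gene that was higher was Ly6i, at 509 and 214 CPM, with a log2 ratio of 1.25 (0.92 to 1.59) and 1.04 without the mixed barcodes. Mmp8, a collagenase of granulocytes and young monocytes, was lower, at 16.4 and 105 CPM, a ratio of -2.67 (-3.60 to -1.82), and -2.86 without the mixed barcodes. Prtn3, a proteinase of granulocyte and monocyte precursors, was lower too, at 19.5 and 71.5 CPM, while Mpo and Ms4a3 were at 0 in both libraries. S100a6, at 3794 and 6143 CPM, was the other lower gene, and 28.0% of its Ctrl UMIs came from 1 cell. Without the mixed barcodes S100a6 stood at 3004 and 3309 CPM, a ratio of -0.14.

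MHC class II genes were higher in RSPO3-OE for 8 of the 9 list genes with enough UMIs (7 without the mixed barcodes), and 0 were lower. The median log2 ratio was 1.77, 1.40 without the mixed barcodes, and 0.40 in macrophages, where 1 of 10 was higher. H2-Ab1, a beta chain of the class II dimer, stood at 3462 and 853 CPM in RSPO3-OE and Ctrl, and at 3720 and 1118 CPM without the mixed barcodes. Its log2 ratio was 2.02 (1.86 to 2.18), 1.73 (1.57 to 1.90) without them, and 0.51 in macrophages, which stood at 3440 and 2413 CPM. H2-Aa, the partner alpha chain, stood at 3482 and 1000.4 CPM, a ratio of 1.80, and 1.51 without the mixed barcodes. H2-Eb1, another class II beta chain gene, stood at 2417 and 595 CPM, ratios of 2.02 and 1.73. Summed over all cells, the RSPO3-OE monocytes thus held about as much H2-Ab1 as their macrophages, and the Ctrl monocytes less than theirs. The median RSPO3-OE monocyte held less class II than the median RSPO3-OE macrophage, as given below.

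Most genes of class II loading were also higher. H2-DMb1, a chain of the peptide exchange factor H2-DM, stood at 602 and 176 CPM, a log2 ratio of 1.77 (1.42 to 2.14), and at 632 and 224 CPM without the mixed barcodes. H2-DMa, its partner, stood at 525 and 314 CPM, but its ratio of 0.74 became 0.48 without the mixed barcodes, short of 1.5-fold. H2-DMb2 stood at 33.9 and 9.53 CPM. Cd74, the invariant chain, stood at 8105 and 3003 CPM, ratios of 1.43 and 1.17. Ciita, the coactivator of all of them, was sparse at 53.4 and 26.2 CPM, with 54.5% of its Ctrl UMIs in 1 cell and a ratio of 0.68 (-0.28 to 1.77) without the mixed barcodes. Ctss, the protease that trims the invariant chain, was the 1 of 9 short of 1.5-fold, at 3464 and 2575 CPM. H2-Oa was too sparse, with 8 and 1 UMIs. MHC class I genes differed little: B2m stood at 3584 and 3144 CPM, 3 of 14 were higher (1 without the mixed barcodes), and the median was 0.25.

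Cell by cell, class II divided the monocytes into cells with many transcripts and cells with almost none. The sum of H2-Aa, H2-Ab1 and H2-Eb1 ran from 0 to 646 UMIs per 10000 in RSPO3-OE members with a median of 27.8, and from 0 to 445 in Ctrl members with a median of 0.677. In 36 RSPO3-OE and 21 Ctrl members it was 0. At least 10 per 10000 were held by 70 of 135 RSPO3-OE members, 51.9% (43.1 to 60.5), and by 12 of 46 Ctrl members, 26.1% (14.3 to 41.1). The limit of 10 was set after the values had been seen, and 4 members in each library lay between 5 and 20. Without the mixed barcodes the shares were 52.3% (43.4 to 61.0) and 27.9% (15.3 to 43.7), and the intervals then overlap slightly. With every cell thinned to 2000 UMIs and a limit of 2 UMIs they were 54.5% (45.7 to 63.2) and 30.2% (17.2 to 46.1). In the cells above the limit, which were chosen by this sum, the median was 161 UMIs per 10000 in RSPO3-OE against 51.2 in the 12 Ctrl cells. Summed over those cells without the mixed barcodes the libraries were nearer, with H2-Ab1 at 6486 and 3788 CPM and H2-Aa at 6543 and 4508 CPM. Macrophages had higher medians of the class II sum than members, at 79.0 UMIs per 10000 in RSPO3-OE and 23.5 in Ctrl. They passed the limit in 80.5% of RSPO3-OE and 58.3% of Ctrl cells. T cells, which should lack class II, passed it in 1.64% and 0.469%, below the shares in monocytes. T cells do not show how often monocytes and macrophages shared a barcode, which was not tested.

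**Figure D3:**
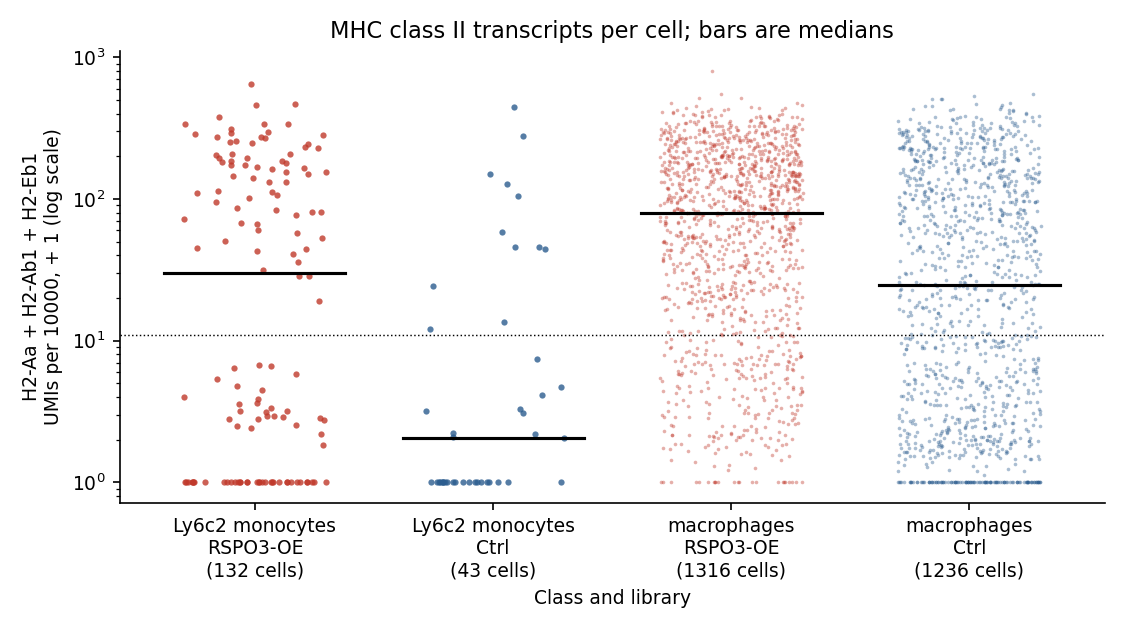
Each point is 1 cell, plotted by its summed H2-Aa, H2-Ab1 and H2-Eb1 UMIs per 10000 (y axis, plus 1, log scale) for Ly6c2 monocytes without the mixed barcodes and for macrophages of each library (x axis). Black bars are medians and the dotted line is the limit of 10 per 10000, which 69 of 132 RSPO3-OE and 12 of 43 Ctrl monocytes passed, with few cells near the line.

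Monocytes with and without class II differed in other genes as well. The genes compared here were chosen after their values had been seen, and values are without the mixed barcodes. Of the genes with enough UMIs in RSPO3-OE, 12.8% were at least 1.5-fold higher in the 69 class II cells than in the 63 others, and 15.1% were lower. Ciita stood at 94.9 CPM in class II cells and 5.24 CPM in the others, and in Ctrl at 122 and 0 CPM (up to 16.6). Cxcl9, an interferon gamma-induced chemokine for T cells, stood at 415 and 47.1 CPM in RSPO3-OE, and its 36 Ctrl UMIs came from 1 class II cell. Itgax, the integrin CD11c of dendritic cells and macrophages, stood at 103 and 28.8 CPM, and Batf3, a dendritic cell transcription factor, at 59.3 and 15.7 CPM. Of the conventional dendritic cell list, only Batf3 and Xcr1 had enough UMIs to compare. Xcr1 passed that limit through 1 class II cell, so no list median is given. The 15 Xcr1 UMIs and 5 Clec9a UMIs came from 1 and the same RSPO3-OE cell, while Zbtb46 and Cd209a were at 0.

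Classical monocyte genes were lower in the class II cells of RSPO3-OE, for 11 of 16 genes with 0 higher, and a median log2 ratio of -1.43. Patrolling monocyte genes were lower there too, for 7 of 10 with 0 higher, and a median of -1.16. Over all genes compared there, 15.1% were lower. Chil3 stood at 350 CPM in class II cells and 1026 CPM in the others, Hp at 94.9 and 374 CPM, and Ifitm6 at 25.7 and 319 CPM. Plac8 stood at 3549 and 6240 CPM. Ccr2, at 736 and 652 CPM, and Il1b, at 5169 and 4146 CPM, differed by less than 1.5-fold. In Ctrl, with 12 class II cells, Chil3 stood at 443 CPM (317 to 603) against 579 CPM (483 to 688). Hp stood at 122 and 215 CPM there, but Plac8, at 4774 and 4600 CPM, and Ccr2, at 1086 and 736 CPM, were not lower in the Ctrl class II cells. C1qa stood at 91.0 and 18.3 CPM in RSPO3-OE, far under the macrophage level in both, and macrophage list genes were higher for 5 of 19 and lower for 3. The median depth was 6736 UMIs in class II cells and 5717 in the others.

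**Figure D4:**
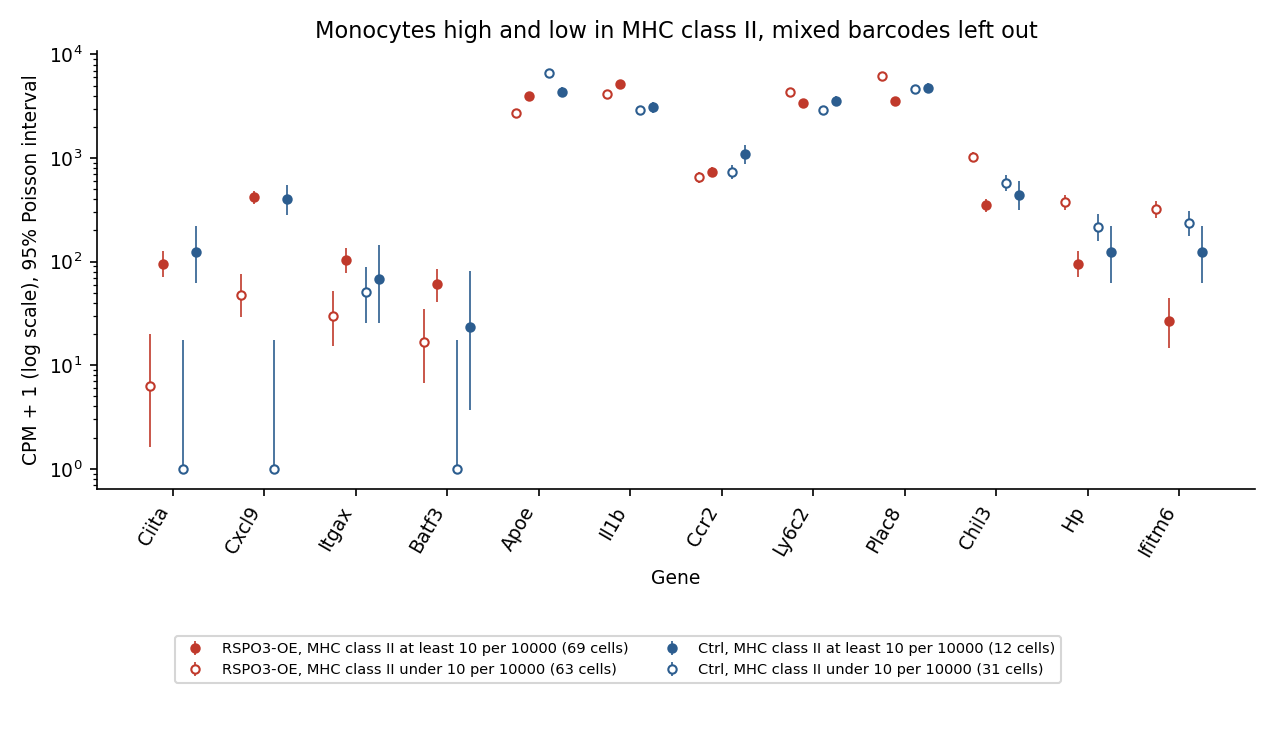
Level of 12 genes (x axis) in CPM (y axis, plus 1, log scale, bars are 95% Poisson intervals) in Ly6c2 monocytes without the mixed barcodes, filled for cells with at least 10 class II UMIs per 10000 and open for the others, red for RSPO3-OE and blue for Ctrl. In RSPO3-OE, Ciita (94.9 and 5.24 CPM) and Cxcl9 (415 and 47.1 CPM) are higher in class II cells, Chil3, Hp and Ifitm6 are lower, and Ccr2 is level.

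Of the 18 list genes of the interferon gamma response, 15 stood at least 1.5-fold higher in RSPO3-OE members and 0 lower, against 18.2% and 12.9% of all genes. Without the mixed barcodes 13 of 18 were higher. The median log2 ratio was 1.13, 0.84 without the mixed barcodes and 0.65 in macrophages, where 13 of 19 were higher. Irf1, a transcription factor induced by interferon gamma, stood at 260 and 52.4 CPM, a ratio of 2.31 (1.68 to 3.01), and 2.65 without the mixed barcodes. Iigp1 and Irgm1, immunity-related GTPases, stood at 149 and 16.7 CPM and at 233 and 83.4 CPM. Socs1, the feedback inhibitor of the receptor's kinases, stood at 114 and 23.8 CPM. Cxcl10, a T cell chemokine, stood at 1706 and 719 CPM, with 54.6% of its Ctrl UMIs in 1 cell. After thinning, Cxcl10 was found in 45.9% of RSPO3-OE members (37.3 to 54.7) and 15.2% of Ctrl members (6.34 to 28.9), at 11.6% and 11.4% in T cells. The immunoproteasome genes Psmb8 and Psmb9 were nearest to equal, at ratios of 0.40 and 0.25.

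The same list was also compared within each class II state. Among cells without class II it was higher in RSPO3-OE for 12 of 17 genes with a median of 0.94, where 21.2% of all genes were higher and 10.4% lower. Among class II cells 10 of 17 were higher and 1 lower with a median of 0.93, where 28.4% of all genes were higher and 12.1% lower. Within those class II cells, 4 of 9 MHC class II genes were higher and 0 lower, with a median of 0.54. Classical monocyte genes differed by state. Among cells without class II, 5 of 16 were higher in RSPO3-OE and 1 lower, with a median of 0.20. Among class II cells 0 of 14 were higher and 2 lower, with a median of -0.35.

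Serpina3g and Apobec3, which are not on that list, also led the difference. Serpina3g, a serine protease inhibitor of activated leukocytes, stood at 108 and 4.76 CPM, which is 105 and 2 UMIs. Its ratio was 4.50 (2.61 to 7.56), and 4.18 without the mixed barcodes. Apobec3, a deaminase of antiviral defence, stood at 137 and 45.3 CPM in members and at 103 and 102 CPM in macrophages. Its ratio was 1.59 (0.89 to 2.37) in members, 1.51 without the mixed barcodes, and 0.02 in macrophages. Clec12a, an inhibitory receptor for uric acid crystals, stood at 135 and 26.2 CPM. Its ratio was 2.36 in members, 2.04 without the mixed barcodes, and 0.67 in macrophages.

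Type I interferon genes were higher for 12 of 25 and lower for 0, against 18.2% and 12.9% of all genes. Their median was 0.58. Without the mixed barcodes 8 of 25 were higher, against 19.1% of all genes, with a median of 0.41. Rsad2, the antiviral enzyme viperin, stood at 515 and 224 CPM, and Ifit1, which binds viral RNA caps, at 300 and 133 CPM. Ifit3 was nearly equal, at 363 and 353 CPM, and 43.6% of the Ctrl Rsad2 UMIs came from 1 cell.

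Inflammatory cytokine and NF-kB genes were higher for 14 of 20 and lower for 0, against 18.2% and 12.9% of all genes. Their median was 0.85. Without the mixed barcodes 10 of 20 were higher, against 19.1% of all genes, with a median of 0.58. In macrophages 15 of 20 were higher with a median of 1.09. Il1b had a ratio of 0.996 (0.89 to 1.10), and 0.68 without the mixed barcodes. After thinning, Il1b was found in 85.2% of RSPO3-OE members (78.1 to 90.7) and 63.0% of Ctrl members (47.5 to 76.8), against 2.84% and 0.474% of T cells. Rel, an NF-kB subunit, stood at 223 and 50.02 CPM, and Nlrp3, the sensor of the inflammasome that matures IL-1 beta, at 262 and 88.1 CPM. Nfkb1 and Relb stood at 200 and 83.4 CPM and at 46.2 and 14.3 CPM, while Sod2 was at 201 and 214 CPM.

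Immediate early genes were higher for 8 of 16 in members (9 without the mixed barcodes) and for 9 of 16 in macrophages, with medians of 0.59, 0.62 and 0.61. In the same order, 18.2%, 19.1% and 12.9% of all genes were higher. Nr4a2 and Nr4a3, nuclear receptors induced within minutes of stimulation, stood at 377 and 71.5 CPM and at 119 and 14.3 CPM. Their ratios were 2.40 and 3.06 in members, 1.96 and 2.71 without the mixed barcodes, and 2.78 and 3.73 in macrophages. Nr4a1, needed for patrolling monocytes, stood at 537 and 260 CPM, and Klf4, a factor of monocyte differentiation, at 899 and 357 CPM. Jun was the exception, at 741 and 996 CPM. Ifrd1, a transcriptional coregulator, stood at 641 and 171 CPM. Its ratio was 1.90 in members, 1.72 without the mixed barcodes, and 1.76 in macrophages. Cwc25, C3 and Ptgs2 were higher in members with ratios of 0.99, 0.84 and 0.88, and in macrophages with 2.08, 2.54 and 2.18. Without the mixed barcodes the member ratios were 0.85, 0.67 and 0.56, the last short of 1.5-fold.

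Chemokines were higher for 8 of 16 and lower for 3, against 18.2% and 12.9% of all genes. Without the mixed barcodes 6 were higher and 5 lower, against 19.1% and 9.69% of all genes. Ccl7, a ligand of CCR2, stood at 251 and 33.3 CPM, a ratio of 2.91 (2.14 to 3.80), and 2.30 without the mixed barcodes. Macrophages held more of it, at 808 and 542 CPM, and after thinning 13.3% and 6.52% of members held it. Ccl6 and Ccl9, ligands of CCR1, were lower, at 383 and 707 CPM and at 208 and 414 CPM. Cxcl3, a neutrophil chemokine, was lower at 47.2 and 319 CPM, but 77.6% of the Ctrl and 80.4% of the RSPO3-OE UMIs each came from 1 cell. Cxcl2 stood at 2657 and 1927 CPM, and Thbs1, the matrix protein thrombospondin 1, at 686 and 753 CPM. Their ratios were 0.46 and -0.13 in members, 0.10 and -0.42 without the mixed barcodes, and 1.56 and 1.06 in macrophages.

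**Figure D5:**
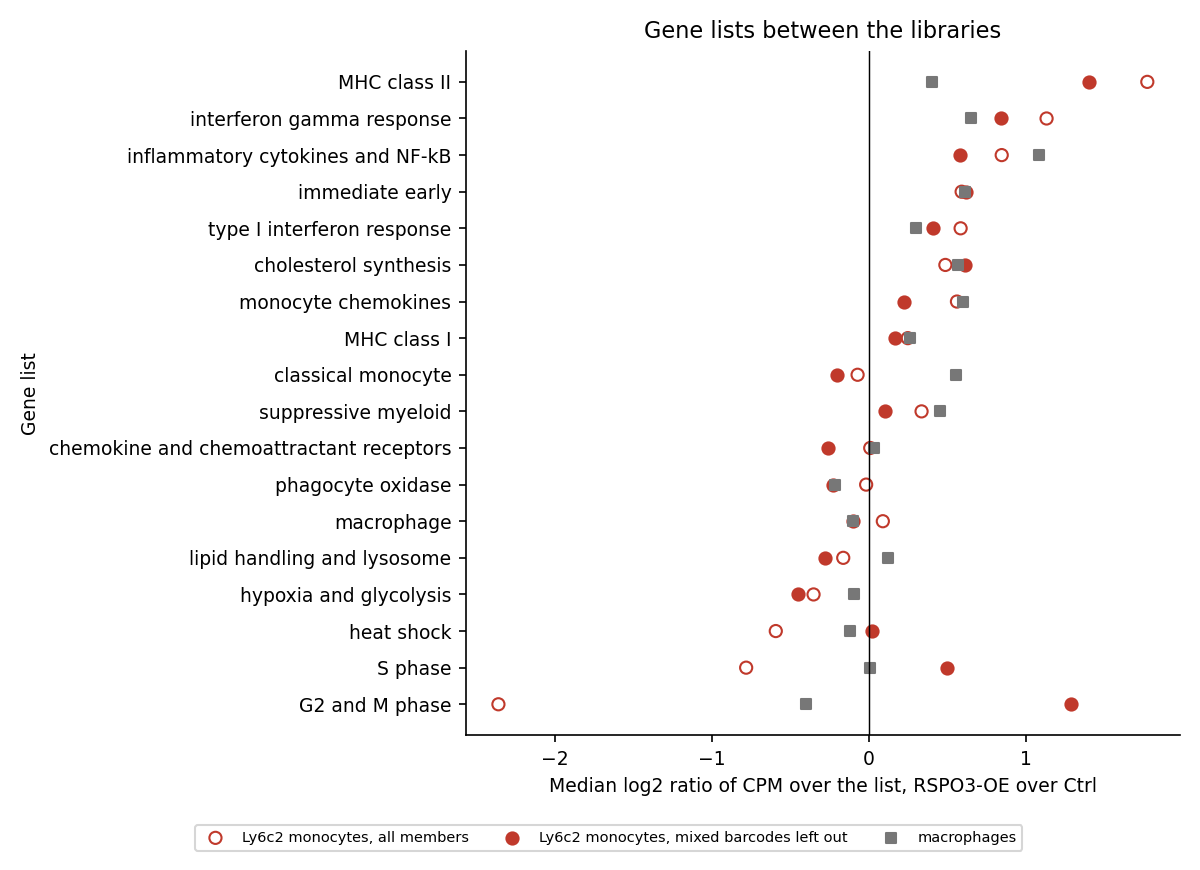
Median log2 ratio of RSPO3-OE over Ctrl (x axis) for 18 gene lists (y axis), with open red circles for all Ly6c2 monocytes, filled red circles without the 6 mixed barcodes and grey squares for macrophages, 1 library per group. MHC class II stands highest in monocytes (1.77 and 1.40) and at 0.40 in macrophages, classical monocyte genes stand near 0 in monocytes, and the lists of S phase, of G2 and M phase and of heat shock lie to the left of 0 with the mixed barcodes and to its right without them.

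Genes lower in RSPO3-OE members were fewer and rested more on single cells. Hist1h1c, a linker histone, stood at 29.8 and 121 CPM, ratios of -2.03 and, without the mixed barcodes, -1.88. Hspa1b and Hspa1a, stress-induced HSP70 genes, stood at 60.6 and 200.1 CPM and at 147 and 312 CPM, and were lower in macrophages too, with ratios of -2.86 and -2.14. Apoc2, an apolipoprotein, stood at 221 and 462 CPM, and Ankrd37, a hypoxia-induced ankyrin protein, at 46.2 and 126 CPM. Ifitm1 had ratios of -1.05 in members, -0.64 without the mixed barcodes and -1.10 in macrophages. Of 23 hypoxia and glycolysis genes 4 were lower and 1 higher, with a median of -0.35 (7 lower and -0.45 without the mixed barcodes). Over all genes 12.9% were lower and 18.2% higher (9.69% and 19.1% without the mixed barcodes). Pdk1, which keeps pyruvate out of mitochondria, stood at 17.5 and 47.6 CPM, and Tpi1, a glycolytic enzyme, at 639 and 1012 CPM.

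Several lower genes followed the mixed barcodes. Mt2, a metallothionein, stood at 39.0 and 157 CPM, with 89.4% of its Ctrl UMIs in 1 cell, and its ratio of -2.01 became 0.82 without those barcodes. Spp1, osteopontin, went from -1.29 to -0.32, Ctsl from -0.99 to -0.25, Galnt1 from -1.34 to -0.09, Mt1 from -1.26 to -0.70 and Pebp1 from -1.37 to -0.67. The G2 and M phase list went from -2.36 to 1.29, since 92.0% of its Ctrl UMIs, 219, came from the 3 mixed Ctrl barcodes. The S phase list went from -0.78 to 0.50, and heat shock from -0.59 to 0.02. Without the mixed barcodes the G2 and M phase list summed to 121 and 60.7 CPM, against 947 and 1177 CPM in macrophages.

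Genes of growth and metabolism were compared too. Cholesterol synthesis genes were higher for 7 of 15 in members with a median of 0.49 (9 and 0.61 without the mixed barcodes). In macrophages 7 of 17 were higher, with a median of 0.56. In the same order, 18.2%, 19.1% and 12.9% of all genes were higher. Cyp51 and Hmgcs1, enzymes of that pathway, stood at 83.2 and 23.8 CPM and at 47.2 and 14.3 CPM. Fabp5, a fatty acid carrier, stood at 162 and 31.0 CPM, a ratio of 2.39 (1.57 to 3.33), and 2.07 without the mixed barcodes. Lpl was sparse at 15.4 and 4.76 CPM. Of 8 growth factor receptors 2 were higher and 0 lower, against 18.2% and 12.9% of all genes. The higher ones were Csf2rb, at 395 and 200 CPM, and Csf3r, at 57.5 and 26.2 CPM. Csf2ra stood at 253 and 219 CPM. Of 11 chemoattractant receptors 2 were higher, a share no larger than the 18.2% of all genes, and 1 was lower (2 and 2 without the mixed barcodes). Cxcr4 and Ccrl2 were the higher genes, at 187 and 76.2 CPM and at 417 and 195 CPM, and C5ar1, the receptor of the complement fragment C5a, was lower at 79.1 and 121 CPM. Suppressive myeloid genes were higher for 5 of 18 and lower for 1, against 18.2% and 12.9% of all genes. Without the mixed barcodes 2 were higher and 1 lower, against 19.1% and 9.69% of all genes. Arg1, the arginine-degrading arginase, stood at 1416 and 1772 CPM and at 1481 and 2316 CPM without the mixed barcodes. Its log2 ratio of -0.32 turned to 0.50 when members needed at least 5 Ly6c2 UMIs. Nos2, which makes nitric oxide, stood at 46.2 and 14.3 CPM.

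R-spondin receptors were hardly read in the monocytes. Lgr5, Lgr6, Rnf43 and the Wnt target genes Axin2 and Nkd1 gave 0 UMIs in both libraries, and Lgr4 and Znrf3 gave 1 UMI each in RSPO3-OE and 0 in Ctrl. At the depth of the summed members, 0 UMIs allow up to 3.79 and 8.79 CPM in RSPO3-OE and Ctrl. Of 10 genes of the pathway with enough UMIs, 1 was higher in RSPO3-OE and 4 lower, against 18.2% and 12.9% of all genes. Without the mixed barcodes 1 of 9 was higher and 2 lower, against 19.1% and 9.69% of all genes. Tcf7l2, a transcription factor that works with beta-catenin, stood at 51.3 and 100.04 CPM, a ratio of -0.96 (-1.58 to -0.33), and Ctnnb1, beta-catenin itself, at 76.0 and 71.5 CPM. The overexpressed gene Rspo3 gave 18 UMIs in RSPO3-OE members, 18.5 CPM against 93.9 CPM over all kept barcodes of that library, and 0 UMIs in Ctrl members.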

How the data were processed

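Raw UMI counts per gene and barcode of 2 libraries, 1 per group, were used as deposited. Per the submitters' processing notes, the authors made these counts on mm10 with Cell Ranger 3.0.1. The version written in the matrices is 3.1.0, per the file headers. Deposited barcodes numbered 7314 in RSPO3-OE and 7301 in Ctrl, and the filters removed 150 and 311, of which 0 met the member limits. Kept UMI totals were 155377094 and 143179718. Groups came from the genotype in the labels.

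For each class of each library, a gene's UMIs were added up and scaled by all UMIs of that class (CPM). Log2 ratios have exact binomial, levels exact Poisson and shares exact Clopper-Pearson 95% intervals, for counting error only. A gene entered comparisons with at least 20 UMIs in both sums together (10 for list genes). Cell shares were also computed after thinning each cell to 2000 UMIs. Scrublet (scanpy 1.11.5, expected rate 0.05) marked 173 RSPO3-OE barcodes (2.41%) and 94 Ctrl barcodes (1.34%), which were removed only as an alternative. Only the ratios and their intervals were tested on simulated counts. Those counts were drawn as Poisson sums with no variation between cells, so the simulation does not cover such variation. Software was matplotlib 3.10.9, pandas 2.3.3, scipy 1.17.1 and numpy 2.4.6 under Python 3.11.15. Gene positions are those of GENCODE vM21.

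Members and the 36 gene lists were chosen with earlier results of these data known. Named genes are the 12 highest and 12 lowest between libraries and between classes, ranked by the counting interval's bound nearest 0 or by the smaller ratio of the libraries, with at least 50 UMIs and 100 CPM where higher, and the 6 at each end of the difference of the library ratio between monocytes and macrophages. The library ranking also asked for at least 0.5 times the CPM over all kept barcodes. From lists, at most 4 at each end were named, or all of a list of up to 10, and exceptions are stated. Some list genes are not reported here. Mitochondrial, ribosomal, haemoglobin, antigen receptor and unnamed-model genes were left out of the rankings.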

Additional observations from a re-analysis of the deposited data

How the results depend on the processing

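No paired analysis was possible because each group had 1 library. With genes of at least 1 UMI, 3232 were higher and 3418 lower in RSPO3-OE members, and 1908 and 1381 higher and lower in members than in macrophages. With genes of at least 100 UMIs these counts were 313, 91 and, for genes higher in members than macrophages, 161. With cells thinned to 2000 UMIs they were 603, 291, 229 and 251, and the share of genes past 1.5-fold that were higher was 67.4%, against 58.6% with all members, 66.4% without the mixed barcodes, 77.5% at 100 UMIs and 48.6% at 1 UMI. A mean of the cells' own CPM gave 813 genes lower in members than macrophages, and macrophages matched on depth gave 203 higher and 320 lower. Leaving out cells above 3 times the median UMIs gave 522 genes lower in RSPO3-OE. With at least 1 Ly6c2 UMI members were 2.25% of kept RSPO3-OE barcodes. The median of S phase genes between the libraries became 0.50 without the mixed barcodes or Scrublet's calls, 1.32 thinned and 0.85 without deep cells. That of G2 and M phase genes became 1.29 and, without deep cells, 1.36. Heat shock became 0.020, 0.032 thinned and 0.033 without deep cells, alternative activation -0.29 thinned, and S phase in Ctrl members over depth-matched macrophages 0.12. Mt2 became 0.82 without the mixed barcodes, and thinning turned Itgax to -0.14, Il6 to -0.23 and Hspa1a to 0.22. The MHC class II median ran from 1.35 to 2.15 and the interferon gamma median from 0.84 to 1.17 over all alternatives run. The mixed barcodes and thinning change which UMIs are summed, and the cause of the other changes was not tested. At these depths a gene with 20 UMIs has a wide interval, and low genes limit the comparison in the 46 Ctrl members most.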
